A study of Mus musculus with 2 samples.

Results

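The genes examined here are 10 regulators of the G1 phase of the cell cycle in MEL cells, chosen by symbol among the 43346 genes of the deposited gene tables: the D cyclins Ccnd1, Ccnd2 and Ccnd3, their kinases Cdk4 and Cdk6, the E cyclins Ccne1 and Ccne2 with their kinase Cdk2, and the pocket proteins Rb1 and Rbl1. All 10 matched a gene identifier in both tables. MEL is an immortalized mouse line of leukemic erythroid precursors. Polyadenylated RNA of these cells was sequenced single-end in 2 libraries, biological replicates 1 and 2 of 1 group, for which the labels name no treatment, genotype, age or sex. Each library has a biosample entry of its own, but the labels do not say whether the cells were grown as separate cultures, so the spread between replicates may be technical. There is no second group, and every comparison below is between genes within a library, between transcripts of a gene, or between the libraries.

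In the G1 phase, D cyclins bind CDK4 and CDK6 and start the phosphorylation of the retinoblastoma protein and its relatives. These pocket proteins hold E2F transcription factors in repressed complexes, and their phosphorylation frees the E2F factors to activate genes of DNA replication, the E cyclins among them. Cyclin E with CDK2 completes the phosphorylation and drives entry into S phase. In the erythroid lineage, cyclin D3 is known to regulate the number of divisions before terminal differentiation, and the retinoblastoma protein is needed for full maturation of red cells.

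The gene tables sum to 67735380 expected counts in replicate 1 and 79923143 in replicate 2, an expected count being the reads that the authors' model assigned to a gene. All 9 erythroid marker genes were detected (summed level 941 TPM in replicate 1 and 1815 TPM in replicate 2), whereas 0 of 5 granulocyte and monocyte, 0 of 3 lymphoid and 0 of 3 fibroblast markers were. The summed levels of these other markers were 0.05 and 0.19 TPM, 0.09 and 0.49 TPM, and 0.23 and 0.46 TPM, with Ly6g, Cd14, Cd3e and Dcn at 0 in both libraries. TPM is the authors' measure of a gene's level, scaled for transcript length and library size. The libraries differed from each other along the GC content of genes, which touches the members as given below.

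Promoter sequences of the genes around which the results turn are shown first: Cdk4, highest in TPM over all transcripts, Ccnd3, whose transcripts start at a distal and a proximal site, and Rbl1, a pocket protein gene at a level similar to that of Rb1. Each is the 250 bases before the RefSeq transcript start (GRCm38.p6), 5′ to 3′ on the strand of the gene, with 1 motif in capitals. In the Cdk4 promoter (chr10:127063285-127063534, plus strand) the capitals mark the E-box CACGTG, which is its own reverse complement. In both Ccnd3 promoters (chr17:47504801-47505050 and chr17:47593217-47593466, plus strand) they mark the GC box, GGGCGG or its reverse complement CCGCCC. In the Rbl1 promoter (chr2:157204535-157204784, minus strand) they mark an E2F motif, searched on both strands as TTTCGCGC, TTTGGCGC, TTTCCCGC and TTTGCCGC.
Cdk4: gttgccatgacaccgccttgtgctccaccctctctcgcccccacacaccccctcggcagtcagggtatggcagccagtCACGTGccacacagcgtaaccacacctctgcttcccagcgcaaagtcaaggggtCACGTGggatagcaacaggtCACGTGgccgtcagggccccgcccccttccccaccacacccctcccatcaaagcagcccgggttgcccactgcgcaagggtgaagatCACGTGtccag
Ccnd3 distal: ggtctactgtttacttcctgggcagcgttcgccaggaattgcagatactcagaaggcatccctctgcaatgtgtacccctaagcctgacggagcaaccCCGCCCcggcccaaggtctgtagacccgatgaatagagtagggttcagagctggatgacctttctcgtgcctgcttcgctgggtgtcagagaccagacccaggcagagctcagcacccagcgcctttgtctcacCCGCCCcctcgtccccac
Ccnd3 proximal: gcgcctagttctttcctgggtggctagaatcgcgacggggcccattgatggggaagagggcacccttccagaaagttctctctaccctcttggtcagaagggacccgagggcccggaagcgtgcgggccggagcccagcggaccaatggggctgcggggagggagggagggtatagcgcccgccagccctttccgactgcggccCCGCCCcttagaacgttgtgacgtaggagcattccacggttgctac
Rbl1: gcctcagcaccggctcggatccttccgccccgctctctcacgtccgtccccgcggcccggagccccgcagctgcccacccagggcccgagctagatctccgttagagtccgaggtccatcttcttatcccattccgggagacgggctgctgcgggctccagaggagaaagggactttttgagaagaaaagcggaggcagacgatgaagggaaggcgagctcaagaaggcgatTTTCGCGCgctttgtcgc

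The Cdk4 window held 4 CACGTG motifs, beginning 172, 118, 98 and 11 bases before the start. At least 1 such motif was found in 6.02% of 32851 RefSeq promoter windows of the same length, and at least 3 in 0.0609%. The Rbl1 window held 1 E2F motif, 18 bases before the start, a class found in 1.86% of windows. Not marked in capitals, 1 GC box lay in the Cdk4 window and 1 in the Rbl1 window. The distal Ccnd3 window held 2 GC boxes, 152 and 18 bases before its start, and the proximal window held 1 GC box, 46 bases before its start, and 1 CCAAT box. GC boxes were in 32.7% and CCAAT boxes in 33.8% of all windows. None of the marked motifs overlapped another motif searched. Of the other members with an entry, Cdk2 had 1 E2F motif, 140 bases before the start, 5 GC boxes and 1 CCAAT box. Ccne1 had 4 GC boxes, and Cdk6 had 1 CACGTG motif and 1 TATA box (TATAAA). These matches describe letters only, and no binding was measured.

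Of the 10 members, 9 were detected at 1 TPM or more in both replicates and 8 at 10 TPM or more, while 46.8% and 31.4% of 21474 protein-coding genes met these limits. In order of mean TPM over all transcripts, Cdk4 was highest, followed by Ccnd3 and Ccnd2, then by Ccne1, Ccne2, Cdk2 and Cdk6, then by Rbl1 and Rb1, and last by Ccnd1. Among the 4 genes from Ccne1 to Cdk6 each neighbour's replicate range overlapped the next, as it did between Rbl1 and Rb1. The other neighbours in the order did not overlap, but genes further apart could. Ccne2 (83.9 and 26.8 TPM) also overlapped Ccnd2 (94.9 and 81.0 TPM) above and Rbl1 (28.5 and 13.7 TPM) below. The members' mean levels spanned ranks 104 (Cdk4) to 11151 (Ccnd1) among the protein-coding genes.

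**Figure D1:**
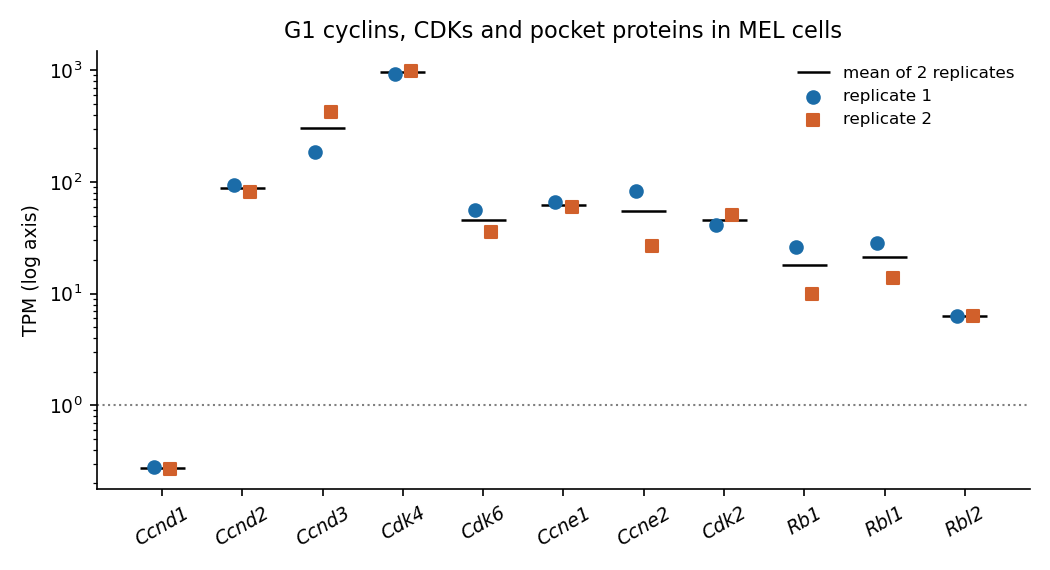
Level of each member and of the third pocket protein gene Rbl2 in MEL cells, in TPM on a log axis, by replicate (points) with the mean of the 2 replicates (bars); the dotted line marks 1 TPM. Cdk4 lies highest at 922 and 994 TPM, and Ccnd1 is the only member under the line, at 0.28 and 0.27 TPM.

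The D cyclin message of MEL cells came from Ccnd3 and Ccnd2, and Ccnd1 was near 0. Ccnd3 (ENSMUSG00000034165.12, chr17:47505051-47599691, plus strand) stood at 185 TPM in replicate 1 and 428 TPM in replicate 2 (306 ± 172, SD, n = 2). Ccnd2 (chr6:127125162-127152193, minus strand) stood at 94.9 and 81.0 TPM (87.9 ± 9.80, n = 2). Ccnd1 (ENSMUSG00000070348.4, chr7:144929931-144939925, minus strand), the D cyclin induced by growth factors in many other cell types, stood at 0.28 and 0.27 TPM (0.275 ± 0.00707, n = 2). Ccnd3 was thus above Ccnd2 in both libraries, but it was the Ccnd3 value that moved between them, and Ccnd1 was the same in both. The Ccnd1 value rested on 47.3 and 59.3 expected counts, against 13450 and 30559 for Ccnd3 and 24730 and 26975 for Ccnd2. Ccnd1 shares 1100 exon bases with LTO1 on the opposite strand, a gene at 16.3 and 13.1 TPM. Ccnd3 shares 361 exon bases with Bysl on the opposite strand, at 36.9 and 64.6 TPM, likewise higher in replicate 2. The use of strand in counting is not given in the sources used here, and the part of these overlaps in the values was not tested.

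Ratios between genes were set against the spread of single genes between the libraries: over 11655 genes at 1 TPM or more in both replicates, 95% had TPM values that differed by less than 1.42 on the log2 scale, or 2.67-fold. No p is given for 2 replicates, for which an exact sign-flip test cannot go below 0.5. The log2 ratio of Ccnd2 to Ccnd1 TPM, with a pseudocount of 0.1, was 7.97 and 7.78 (7.87 ± 0.13, n = 2), or 234-fold. That of Ccnd3 to Ccnd1 was 8.93 and 10.18 (9.55 ± 0.88), or 751-fold. Both lay outside the spread under every setting tried, but their sizes depended on the setting because Ccnd1 was so low. The Ccnd3 to Ccnd1 ratio was 222-fold with a pseudocount of 1, 1023-fold with none and 382-fold in expected counts, and the Ccnd2 to Ccnd1 ratio was 69.5-fold, 319-fold and 487-fold. The ratio of Ccnd3 to Ccnd2 was 1.95-fold in replicate 1 and 5.28-fold in replicate 2, and replicate 1 by itself, at a log2 ratio of 0.96, was inside the spread. Ccnd3 held 66.0% and 84.0% of D cyclin TPM (75.04% ± 12.7, n = 2).

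The mean Ccnd3 to Ccnd2 ratio also rested on which transcripts were counted. Ccnd2 has 1 listed transcript of 5701 nt, whereas Ccnd3 has 21, several of them short. Over transcripts whose coding sequence is annotated from start to stop, a comparison chosen after seeing the data, the log2 ratio was 0.54 and 1.47 (mean 1.00), inside the spread. In expected counts, which are not corrected for length, Ccnd3 made up a mean 44.1% of the D cyclins.

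Of the 21 Ccnd3 transcripts, 3 begin at the proximal start, 13 at the distal start some way upstream and 5 at internal positions. Transcripts from the proximal start held 66.5% and 48.7% of Ccnd3 TPM (57.6% ± 12.6, n = 2), those from the distal start 14.4% and 3.68% (9.02% ± 7.56), and those with internal starts 19.1% and 47.6% (33.3% ± 20.1). The proximal start was ahead of the distal start in both libraries. Most of the proximal share was Ccnd3-205 (ENSMUST00000182209, chr17:47593470-47599689, 1977 nt), at 65.7% and 48.3% of the gene. The complete transcripts from both starts carry the same annotated coding sequence of 876 bases with its start codon at chr17:47593655, so the starts differ in the untranslated leader.

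The internal class differed between the libraries through 1 short transcript. Ccnd3-210, a model of 464 nt annotated as incomplete, was listed at 0 TPM in replicate 1 and at 147 TPM in replicate 2, where it made up 34.4% of Ccnd3. It took 0 and 3633 expected counts. Of the other short models, Ccnd3-217 (385 nt) held 16.5% and 8.34%. Among distal transcripts Ccnd3-201 held 6.39% and 2.38%, and Ccnd3-207 held 6.23% and 0%. By expected counts, in which short transcripts weigh less, the proximal start held 80.3% ± 2.80, the distal start 9.39% ± 5.12 and the internal class 10.3% ± 7.92 of Ccnd3 (n = 2). These shares are the authors' model estimates from single-end reads and were not measured at the starts themselves.

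**Figure D2:**
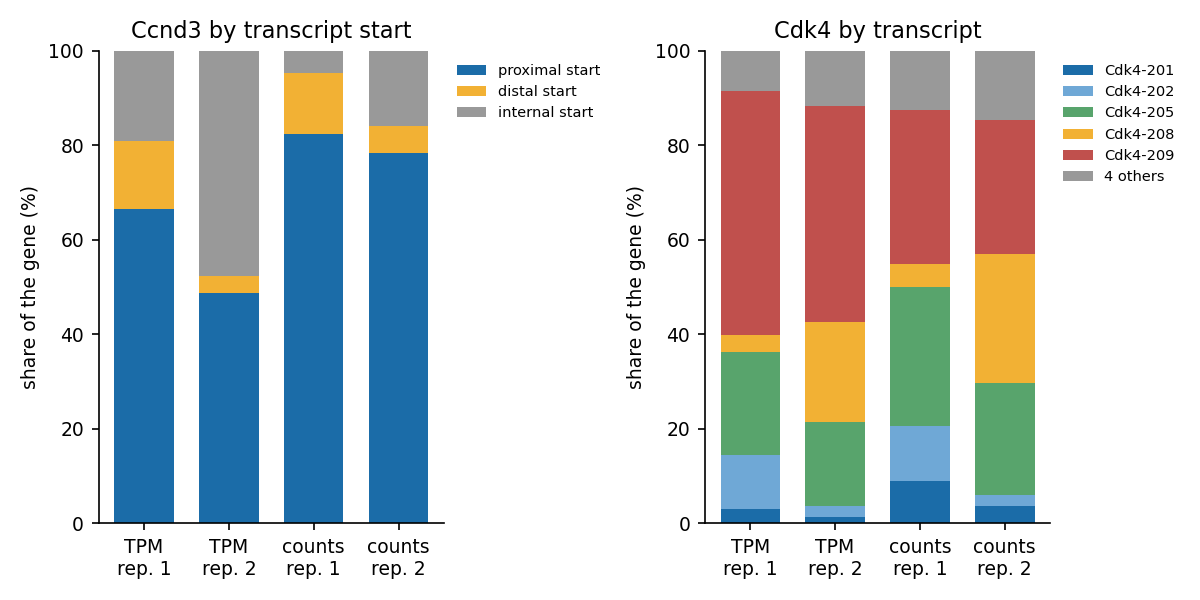
Shares of Ccnd3 by class of transcript start (left) and of Cdk4 by transcript (right), in percent of the gene's TPM and of its expected counts, for each replicate. The proximal start holds the most Ccnd3 in each bar, 66.5% and 48.7% of TPM, while Cdk4-209 holds 51.6% and 45.8% of Cdk4 TPM.

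By TPM over all transcripts, Cdk4 was the highest of the kinases and of all members, but this order did not hold over complete coding transcripts. By that measure Cdk4 stood at 133 and 35.2 TPM, below Ccnd3 (138 and 224 TPM) in both libraries, and in replicate 2 also below Ccnd2, Ccne1, Cdk2 and, by a narrow margin, Cdk6. Cdk4 (chr10:127063534-127067920, plus strand), which pairs with D cyclins, stood at 922 and 994 TPM (958 ± 51.1, n = 2). Cdk6 (chr5:3341485-3531008, plus strand), the other D cyclin kinase, stood at 55.7 and 35.3 TPM (45.5 ± 14.4). Cdk2 (chr10:128697939-128705031, minus strand), the kinase of the E cyclins, stood at 40.9 and 50.3 TPM (45.6 ± 6.68). Cdk4 lay above the other kinases in both libraries with no overlap, whereas the ranges of Cdk6 and Cdk2 overlapped. The Cdk4 to Cdk2 log2 ratio of TPM was 4.49 and 4.30 (4.40 ± 0.13, n = 2), or 21.1-fold, and Cdk4 made up 94.3% and 96.6% of the TPM of Cdk4 and Cdk6 together. Cdk4 rested on 28391 and 39975 expected counts, Cdk6 on 8303 and 7252, and Cdk2 on 4274 and 6760.

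The size of the Cdk4 excess depended strongly on short transcripts. Of 9 Cdk4 transcripts, Cdk4-209, a retained-intron model of 468 nt (chr10:127066076-127067235), took 51.6% and 45.8% of Cdk4 TPM. Cdk4-205, of 950 nt and annotated as incomplete, took 21.7% and 17.9%, and Cdk4-208, annotated as a target of nonsense-mediated decay, took 3.65% and 21.1%. The full-length Cdk4-201 of 2053 nt, with a coding sequence of 909 bases, stood at 27.7 and 12.6 TPM. Transcripts with a complete coding sequence together held 14.5% and 3.54% (9.01% ± 7.74, n = 2), the lowest share of any member. The larger part of this was Cdk4-202, a model of 714 nt with a coding sequence of 474 bases, at 106 and 22.6 TPM. Cdk4 values over complete coding transcripts thus rest mainly on this shorter reading frame. Cdk4-201 by itself was below the complete coding transcripts of Cdk6 (55.7 and 35.4 TPM) and Cdk2 (40.9 and 50.3 TPM) in both libraries.

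Cdk4-201, the longest coding transcript, was 2.88 and 2.82 times the mean Cdk4 length behind the TPM values. Cdk4 ratios fell when length or the set of transcripts was treated otherwise. The mean Cdk4 to Cdk6 ratio of 21.5-fold in TPM was 7.95-fold when counts were divided by the length of the longest coding transcript and 4.34-fold in expected counts. Over complete coding transcripts it was 1.54-fold, from log2 ratios of 1.26 in replicate 1 and -0.01 in replicate 2, inside the spread between libraries. The Cdk4 to Cdk2 ratio was likewise 7.43-fold by longest length, 6.27-fold in expected counts and 1.51-fold over complete coding transcripts, where its log2 value was 1.70 and -0.51. The 2 length-based comparisons were chosen after seeing the data. Cdk4 also shares 641 exon bases with Tspan31 on the opposite strand, which stood at 34.3 and 39.7 TPM. Cdk6 and Cdk2, in contrast, had 100% of TPM on complete coding transcripts.

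A non-coding model as most abundant transcript was not common. Of 5175 protein-coding genes at 10 TPM or more with over 1 transcript, 8.62% had a most abundant transcript of a type other than protein-coding in both replicates, and in 78.4% the top transcript was shared by the replicates. Among the members, Cdk4 was the one gene with the former, and Ccne2 the one whose most abundant transcript differed between the libraries.

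**Figure D3:**
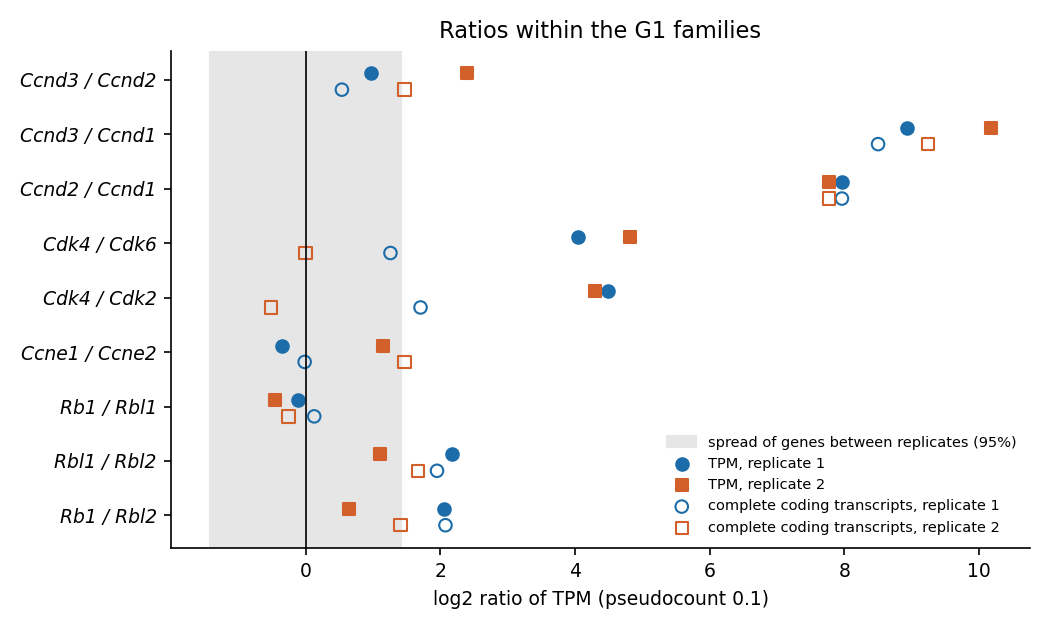
Log2 ratio of TPM (pseudocount 0.1) for 9 pairs of related genes in replicate 1 (circles) and replicate 2 (squares), from all transcripts (filled) and from complete coding transcripts (open). The grey band is the 95% spread of genes between the libraries, ± 1.42; the open Cdk4 points fall in or near it, while the filled ones lie between 4.05 and 4.81.

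The E cyclins were both expressed, and which was higher differed between the libraries. Ccne1 (chr7:38097984-38107534, minus strand) stood at 65.6 and 59.7 TPM (62.7 ± 4.18, n = 2). Ccne2 (chr4:11191351-11204779, plus strand) stood at 83.9 and 26.8 TPM (55.3 ± 40.4, n = 2). Ccne1 varied little, while Ccne2 was above it in replicate 1 and below it in replicate 2. The log2 ratio of Ccne1 to Ccne2 was -0.35 and 1.15 (0.40 ± 1.07), inside the spread between libraries. Ccne1 made up 43.9% and 69.0% of E cyclin TPM (56.5% ± 17.8).

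Short transcripts also took part of the E cyclin values. Ccne2-205, a processed transcript of 432 nt, held 46.4% and 26.5% of Ccne2 TPM, and the coding Ccne2-202 held 40.9% and 55.4%. Over complete coding transcripts, Ccne2 stood at 42.4 and 17.1 TPM and Ccne1 at 41.9 and 47.3 TPM, level in replicate 1 and apart in replicate 2. Ccne2 shares 609 exon bases with Ints8 on the opposite strand, at 37.0 and 27.8 TPM.

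All 3 pocket protein genes were expressed, with Rb1 and Rbl1 at similar levels and Rbl2 lower. Rb1 (chr14:73183673-73325822, minus strand), the retinoblastoma protein, stood at 26.2 and 9.98 TPM (18.1 ± 11.5, n = 2). Rbl1 (chr2:157145893-157204534, minus strand), which encodes p107, stood at 28.5 and 13.7 TPM (21.1 ± 10.5). Rbl2, which encodes p130, is not one of the 10 and stood at 6.25 and 6.34 TPM (6.29 ± 0.0636). Rb1 and Rbl1 were both lower in replicate 2 and kept the same order, whereas Rbl2 TPM stayed level. Rbl2 did not stay level in other measures: its complete coding transcripts stood at 4.88 and 3.38 TPM, and its count, at a log2 ratio of -0.41 of replicate 2 to replicate 1, fell (adjusted p = 3.03e-11 in the exact binomial test, under the 2-fold limit used below). An adjusted p under 0.05 in that test was reached by 77.2% of all genes. With the trend along GC content removed, as given below, the Rbl2 log2 ratio was -0.01 (adjusted p = 0.932, exact binomial test).

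The log2 ratio of Rb1 to Rbl1 was -0.12 and -0.45 (-0.29 ± 0.23, n = 2), inside the spread between libraries. Rbl1 exceeded Rbl2 by a log2 ratio of 2.17 and 1.10 (1.64 ± 0.76), or 3.11-fold, outside the spread on average and inside it in replicate 2. Rb1 exceeded Rbl2 by 2.05 and 0.65 (1.35 ± 0.99), inside the spread on average, while in expected counts the mean was 1.59, outside it. Complete coding transcripts held 85.6% ± 8.22 of Rb1 and 73.5% ± 9.09 of Rbl1 TPM. Rb1 shares 488 exon bases with Rcbtb2 on the opposite strand, at 11.7 and 10.4 TPM, and 408 with Lpar6, at 0.03 and 0.01 TPM.

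Between the libraries, 2 of the 10 members differed by at least 2-fold with an adjusted p under 0.05: Ccne2 and Rb1, both higher in replicate 1. The test was an exact binomial test on expected counts with trimmed-mean (TMM) scaling and Benjamini-Hochberg adjustment over 15251 genes. It compares these libraries, covers counting error only, and called 19.5% of all genes, 11.9% higher in replicate 1 and 7.57% higher in replicate 2, so the members' share was near the background. The split of all calls depended on the scaling, with 1821 genes higher in replicate 1 and 1155 in replicate 2 under TMM, and 1422 and 1700 under library totals. Ccne2 had 6381 expected counts in replicate 1 and 3110 in replicate 2, and fell by 1.40 on the log2 scale (counting SE 0.03). Rb1 had 4539 and 2519, and fell by 1.21 (counting SE 0.04, adjusted p = 1.48e-261 in the exact binomial test).

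The members below the 2-fold limit were, from lowest to highest log2 ratio of replicate 2 to replicate 1, Rbl1 at -0.95, Cdk6 at -0.55, Ccnd2 at -0.23, Ccnd1 at -0.03, Ccne1 at 0.03, Cdk4 at 0.13, Cdk2 at 0.30 and Ccnd3 at 0.82. The Ccnd3 difference was 1.77-fold in counts and 2.31-fold in TPM. In all, 8 of 10 members passed the adjusted p without the limit on size, near the 77.2% of all genes that did. Ccnd1 and Ccne1 (adjusted p = 0.294, exact binomial test) were the exceptions. In edgeR's exact test the dispersion followed a trend with the level of a gene, estimated from both libraries as 1 group. The common dispersion, which the test did not use, came to a biological coefficient of variation of 0.419. By this test 0 members were called, 0 had an unadjusted p under 0.05, and 120 of all genes (0.787%) were called. The differences between the libraries entered the dispersion itself, so the low number of calls cannot show that the libraries were alike.

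The largest of the members' differences lay along GC content. Over 15161 genes with a known GC content, the log2 ratio between libraries had a Spearman correlation of 0.76 with the GC content of the gene's annotated transcripts, given as a description across genes of the same 2 libraries. The median log2 ratio was -0.84 over genes under 45.7% GC and 0.72 over genes above 54.8%. Ccne2, the member lowest in GC at 37.5%, had the lowest ratio, followed by Rb1 at 41.5%, Rbl1 at 43.6% and Cdk6 at 45.9%. Ccnd3, the highest at 57.2%, had the highest ratio.

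With the GC trend removed, the binomial test called 7.63% of genes, 3.94% higher in replicate 1 and 3.69% higher in replicate 2, and 0 of 10 members. Without the limit on size, 7 of 10 members and 60.5% of all genes passed the adjusted p. At an unadjusted p under 0.05 it was again 7 members, and 63.2% of all genes. The log2 ratio was then -0.01 for Ccne2, -0.23 for Rb1, -0.19 for Rbl1, -0.03 for Cdk6 and 0.15 for Ccnd3, and that of Ccnd2 went from -0.23 to 0.14. For the remaining members the ratio grew in size. It went from 0.30 to 0.46 for Cdk2, then the largest, from 0.13 to -0.30 for Cdk4, from -0.03 to -0.21 for Ccnd1 and from 0.03 to -0.10 for Ccne1. The median size of the log2 ratio went from 0.43 to 0.17 for the members, and from 0.59 to 0.25 for all genes tested. The erythroid markers, whose summed TPM was higher in replicate 2, had 4 of 9 genes called higher in replicate 2 before, against 7.57% of all genes, and 0 after, against 3.69%. The median log2 ratio of the 9 markers went from 0.81 to 0.51, but single markers differed. Gata1 went from 1.23 to 0.77, Epor from 1.29 to 0.51 and Alas2 from 0.81 to 0.59. Of the globin genes, Hbb-bs went from 1.08 to 0.85, Hbb-bt from 0.60 to 0.54 and Hba-a1 from 1.01 to 0.32. In contrast, Klf1 went from 0.80 to -0.03, Tal1 from 0.02 to -0.52 and the globin gene Hba-a2 from 0.46 to -0.22. All of these genes were named after their values were seen. The part of GC content in the members' levels was not tested beyond this removal.

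**Figure D4:**
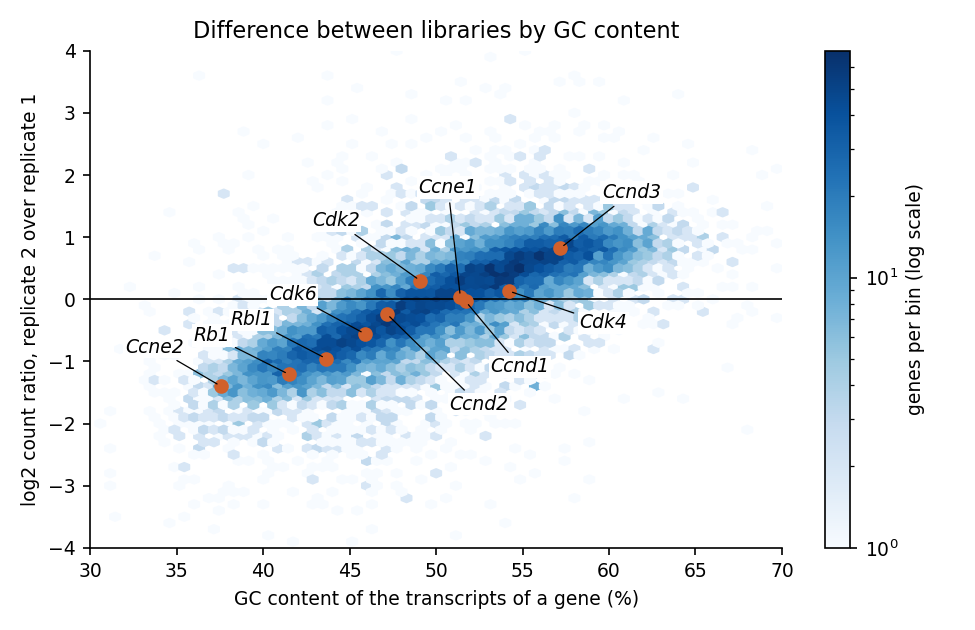
Log2 ratio of counts, replicate 2 over replicate 1, against the GC content of each gene's annotated transcripts in percent, for 15161 genes (blue bins, darker with more genes on a log scale; genes beyond the axes are not drawn) and the 10 members (orange). The members run from Ccne2 at 37.5% GC and -1.40 to Ccnd3 at 57.2% GC and 0.82, along the cloud of all genes.

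The other genes of the pathway were nearly all detected, and their levels put the members in context. Of the CDK inhibitors, 6 of 7 were at 1 TPM or more in both replicates, with a median of 17.9 TPM. Cdkn2a, whose locus encodes p16INK4a and p19ARF, was highest at 164 and 269 TPM (216 ± 74.5, n = 2), followed by Cdkn2d, encoding p19INK4d, at 29.6 and 44.9 TPM. Cdkn2b was lowest at 0.93 and 1.44 TPM, and Cdkn1c, encoding p57KIP2, was next at 7.44 and 7.35 TPM. Cdkn2a thus stood above Cdk6 in both libraries. It was below Cdk4 in TPM over all transcripts but above the complete coding transcripts of Cdk4 in both libraries, and its own transcripts were not separated here.

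All 10 E2F and DP genes were detected, with a median of 23.7 TPM. The DP partner Tfdp1 was highest at 322 and 262 TPM, and E2f4, a repressor-type E2F that binds pocket proteins, was next at 119 and 232 TPM. E2f5 was lowest at 6.79 and 4.79 TPM, followed by E2f7 at 11.3 and 12.4 TPM. No gene of either group was called different between the libraries, against 19.5% of all genes tested.

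Genes that act on the cyclin kinases were likewise present. Of the activators of CDKs, 6 of 6 were detected, from the CDK-activating kinase Cdk7 at 13.3 and 12.3 TPM and the phosphatase Cdc25c at 14.3 and 13.1 TPM to Cdc25a at 52.7 and 46.7 TPM and Ccnh, the cyclin of Cdk7, at 197 and 77.2 TPM. Of 11 genes for the turnover of G1 regulators, 11 were detected, with the CDK-binding Cks1b highest at 249.98 and 325 TPM and the ubiquitin ligase subunit Skp1a next at 320 and 128 TPM. The F-box genes Fbxo4, at 7.36 and 5.55 TPM, and Fbxw7, whose product marks cyclin E for degradation, at 13.3 and 9.01 TPM, were lowest. Ccnh, Skp1a and Cul3, the last chosen after its value was seen, were called higher in replicate 1, as were 11.9% of all genes. No gene of either list was called with the GC trend removed, against 7.63% of all genes.

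Genes downstream of the G1 step had higher median levels than the members. Of the S and M phase cyclins and Cdk1, 4 of 5 were detected, with a median of 149.6 TPM. Cdk1 was highest at 187 and 165 TPM and Ccnb1 next at 172 and 171 TPM. Ccnb2 stood at 76.6 and 73.1 TPM, and Ccna1, a cyclin of the germ line, was listed at 0 in both. All 16 E2F target genes of DNA replication were detected, with a median of 120.6 TPM, against 50.5 TPM for the 10 members. Among them Pcna, which encodes the clamp that holds DNA polymerase on its template, had 518 and 410 TPM and the helicase subunit Mcm6 at 307 and 177 TPM, while Pola1, a DNA polymerase subunit, was among the lowest at 46.04 and 20.3 TPM. Pola1 was called higher in replicate 1 and Tk1, named for its call, higher in replicate 2, against 11.9% and 7.57% of all genes. With the GC trend removed 0 were called, against 7.63% of all genes.

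**Figure D5:**
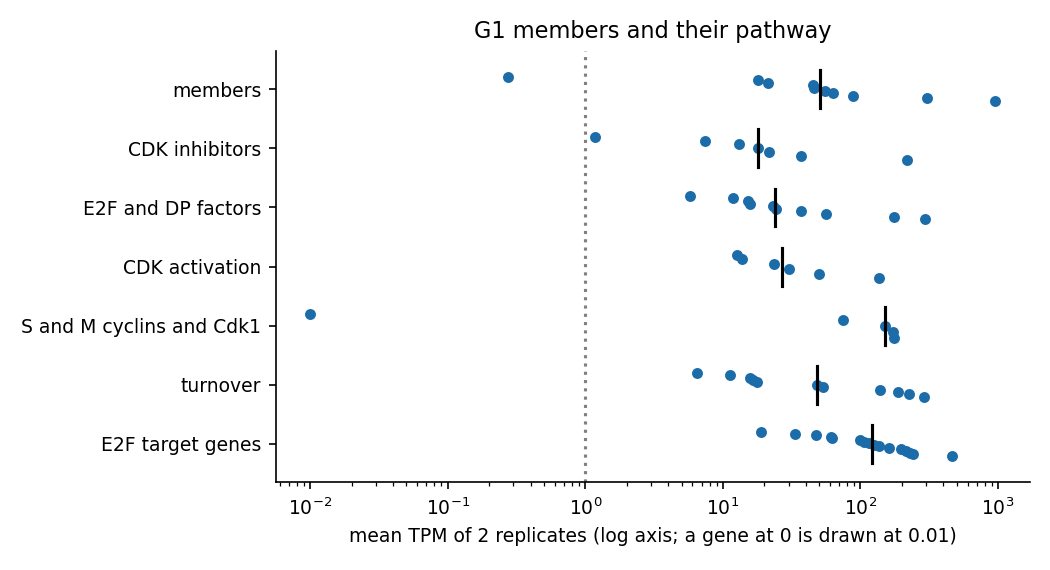
Mean TPM of 2 replicates on a log axis for the members and the pathway lists; points are genes, black bars list medians and the dotted line 1 TPM. The medians run from 17.9 TPM for the CDK inhibitors to 149.6 TPM for the S and M phase genes, with 50.5 TPM for the members; Ccna1, at 0, is drawn at 0.01.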

How the data were processed

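The tables hold values per gene and per transcript for both libraries, on mm10 with GENCODE M4 per the file headers and labels. The aligner, the quantifier and whether counting used strand: not given in the sources used here. The deposited expected counts are estimated reads, divided by the authors' model where reads map to several features. The authors scaled the deposited TPM and FPKM values for effective length. Deposited percent columns give each transcript's share of its gene, and deposited score columns give the model's intervals and posterior SD. Short features with numeric identifiers (0.0574% and 0.131% of counts) and 97 spike-ins at 0 were left out. The short features held 2.93% of TPM in replicate 1 and 6.24% in replicate 2, and gene TPM values were not rescaled without them. GENCODE M21 gave symbols, gene types and positions, matched by identifier. Of 66 transcripts of the members and Rbl2, 61 had the same length in both releases. Promoters came from RefSeq, with entries for 6 of 10 members (none for Ccnd1, Ccnd2, Ccne2 and Rb1).

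Expected counts were rounded to whole numbers, and the libraries were compared gene by gene, where both counts summed to 20 or more, by the exact binomial test conditional on that sum (two-sided), after TMM scaling (edgeR 4.0.16). The log2 ratios of counts carry a prior count of 0.5. The trend with GC content was fitted by lowess (fraction 0.3) and subtracted. Posterior SDs stayed under 3 times the counting error for every member. DESeq2 1.42.0 gave alternative size factors in R 4.3.3; tests used scipy 1.17.1 and statsmodels 0.14.6 in Python 3.11.15. The steps were tested on simulated data. The counting SE and the binomial test cover counting error only. The exact test of edgeR also takes in a dispersion estimated from both libraries.

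The members and lists were chosen with earlier results of these data known. Genes named are the members, Rbl2, genes overlapping a member, and of each pathway list the 2 highest and 2 lowest by mean TPM. Cul3, Tk1 and the erythroid markers were named after their values were seen, and Ly6g, Cd14, Cd3e and Dcn as markers at 0. The values of 1 listed gene that this rule names are not reported here.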

Additional observations from a re-analysis of the deposited data

How the results depend on the processing

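With 2 libraries of 1 group, no test of a condition can be made, and short or incomplete transcript models limit the levels of Cdk4, Ccnd3 and Ccne2. No paired analysis was possible because there is 1 group. The settings changed in turn were the minimums on TPM and counts, the unit (FPKM, posterior mean TPM, expected counts), the pseudocount, the scaling (size factors of DESeq2, or totals), the test (edgeR's exact test), removal of the GC trend, protein-coding genes alone and each replicate left out; complete coding transcripts and counts per longest coding transcript were added after seeing the data. The values below are the main ones that changed call or direction, or moved by more than the replicate spread or by over 1.5 times. The cause was not tested.

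In expected counts, the log2 ratio of Ccnd3 to Ccnd2 turned to -0.35, those of Ccnd3 and Ccnd2 to Ccnd1 were 8.58 and 8.93, those of Cdk4 to Cdk6 and Cdk2 were 2.12 and 2.65, that of Rb1 to Rbl2 was 1.59, Ccnd3 held 44.1% of the D cyclins, Cdk4 held 81.0% of Cdk4 and Cdk6, Ccnd3-205 held 78.7% and the proximal start 80.3% of Ccnd3. With a pseudocount of 1, Ccnd3 and Ccnd2 to Ccnd1 were 7.79 and 6.12. Ccnd2 to Ccnd1 was 8.32 with no pseudocount, 7.72 by FPKM, 7.67 by posterior mean TPM and 7.72 by longest coding length. Over complete coding transcripts, the log2 ratio was 1.00 for Ccnd3 to Ccnd2, 8.87 for Ccnd3 to Ccnd1, 0.63 for Cdk4 to Cdk6, 0.59 for Cdk4 to Cdk2 and 1.74 for Rb1 to Rbl2, and the Cdk4 share was 60.2%. By longest coding length, Ccnd3 to Ccnd2 was 1.10, Ccnd3 to Ccnd1 was 8.82, Cdk4 to Cdk6 and Cdk2 were 2.99 and 2.89, Rb1 to Rbl2 was 1.64 and the Cdk4 share was 88.6%. With 1 replicate left out, the distal share of Ccnd3 ranged from 3.68% to 14.4%, and log2 ratios from 8.93 to 10.18 for Ccnd3 to Ccnd1, from 0.96 to 2.40 for Ccnd3 to Ccnd2, from -0.35 to 1.15 for Ccne1 to Ccne2, from 1.10 to 2.17 for Rbl1 to Rbl2 and from 0.65 to 2.05 for Rb1 to Rbl2; apart from Ccnd3 to Ccnd1, the lower ends of these ratios, and both ends for the E cyclins, are inside the spread between libraries.

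The 2976 genes called between the libraries became 1902 at a summed count of at least 200, 1856 among protein-coding genes, 1157 with the GC trend removed and 120 by edgeR's exact test. The last 2 called 0 members (by edgeR 0 at an unadjusted p under 0.05, with the GC trend removed 7). Rbl2 was not detected at 10 TPM, a count of 0. Log2 ratios of replicate 2 to replicate 1 turned to 0.086 for Ccnd1 with library totals and, with the GC trend removed, to 0.14 for Ccnd2, -0.30 for Cdk4 and -0.10 for Ccne1.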
